A study of Mus musculus with 8 samples.

Results

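Genes that drive the cell cycle and mitosis were compared between mouse morulae with and without knockdown of P150, a subunit of CAF-1, the chaperone that places new histones behind the replication fork. The set held 54 genes picked by name: cyclins, the kinases they activate and the phosphatases and kinases that control them, the spindle checkpoint, mitotic kinases, the centromere and kinetochore, the chromosomal passenger complex with cytokinesis, and condensin with mitotic chromosome proteins. All 54 were found among the 20660 genes named on the array through RefSeq accessions, with 74 probes between them. A probe counted as tested where 3 or more of the 8 arrays read it well above background, and 52 of the 54 genes had one. Ccnd2 and Cdk6, which encode a D-type cyclin and its kinase partner, were not well above background on any array and have no tested value. Of the 52, 50 were well above background on all 8 arrays. The exceptions were Cenpb, whose protein binds a short motif of centromeric DNA, with 2 siControl and 3 P150KD arrays above background, and Ncapg, a condensin subunit, with 2 of each group.

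Progress through the cell cycle depends on cyclins, whose levels rise and fall, and on the cyclin-dependent kinases (CDKs) that they switch on. Wee1 restrains CDK1 by phosphorylation and the Cdc25 phosphatases release it. In mitosis, kinetochores built on centromeric chromatin that carries the histone variant CENP-A attach chromosomes to the spindle, and the spindle checkpoint holds back the anaphase-promoting complex and its activator Cdc20 until all are attached. Cleavage divisions of the early embryo run without growth between them, and a part of the early supply of cell cycle transcripts is inherited from the oocyte.

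Embryos came from in vitro fertilisation, were injected at the 1-cell stage with siRNA against P150 (P150KD) or with control siRNA (siControl), were cultured in KSOM medium, and were collected as morulae at embryonic day 3.0. Each one-colour array carried amplified RNA pooled from 10 embryos, with 3 siControl and 5 P150KD arrays. The labels name replicates but not whether they are separate collections, so p-values reflect only how far these samples spread, which may be technical, and fewer cells of a kind cannot be told apart from less RNA per cell. Between 50.1% and 55.9% of spots per array stood well above background and 0 were saturated. One slide carried all arrays; its column 1 held the 3 siControl arrays and P150KD replicate 1, and column 2 held P150KD replicates 2 to 5. The siRNA target Chaf1a, which encodes P150, read 2.40, 2.09 and 2.27 on the siControl arrays and -1.47, 0.52, -0.48, -1.45 and -0.23 on P150KD replicates 1 to 5. It fell, with a log2 difference of -2.88 (SE 0.48, limma adjusted p = 0.0107), and no P150KD array overlapped the siControl arrays; blocked by slide column the difference was -3.72 and the call was lost (adjusted p = 0.0509). All 9 morula markers, such as Pou5f1 and Cdx2, were well above background on all 8 arrays. The markers of cumulus cells, which surround the oocyte, summed to between 2.46 and 3.18 in siControl and between 1.78 and 3.82 in P150KD, in units of the array's 75th percentile. Foxl2 was above background on all 8 arrays, and 5 of the 10, Has2 and Ptx3 among them, on no array. The part of such cells in the results below was not tested.

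Levels are given as log2 of the signal over the array's 75th percentile, and differences as P150KD minus siControl. With limma and Benjamini-Hochberg adjustment over 30348 probes, and the brightest tested probe standing for its gene, 4 of the 52 cell cycle genes fell and 0 rose at an adjusted p under 0.05. That is 7.69% fallen, beside 10.5% of all 14601 tested genes, and 0% risen, beside 6.65%. At an unadjusted p under 0.05 there were 10 lower and 3 higher members, 19.2% and 5.77%, beside 22.9% and 12.7% of all genes. The 4 that fell were Wee1, Cdc25a, Mad2l1 and Birc5. Signals were lower on average for 38 members and higher for 14; 38 of 52 is 73.1%, beside 61.3% of all tested genes. The median log2 difference of the members was -0.31, and that of all tested genes was -0.24. Every P150KD array lay below every siControl array for 12 members (23.1%, beside 21.8% of all genes) and above for 2, Ccna2 and Cdc25b (3.85%, beside 10.2%). For 31 of the 52 members the 95% interval of the difference lay within 2-fold in either direction, and for the others it reached past 2-fold. Among brighter genes the shares differed: of 3533 tested genes at or above the members' median level, 18% fell and 5.26% rose, with a median difference of -0.31. Of those brighter genes 72.9% had a lower mean signal and 40.4% had every P150KD array below every siControl array. The members' 73.1% and 23.1% are over all 52, dimmer members included, so these shares are not like for like. Of the 12 members with every P150KD array lower, all but Cenpc1 and Cenpn were at or above the members' median level. The 4 that fell were above it as well. Over all probes 13.9% passed, 7.66% fallen and 6.28% risen, and 17.1% of genes passed in either direction. No test of the list as a whole was run, because the members were chosen with earlier results in view.

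**Figure D1:**
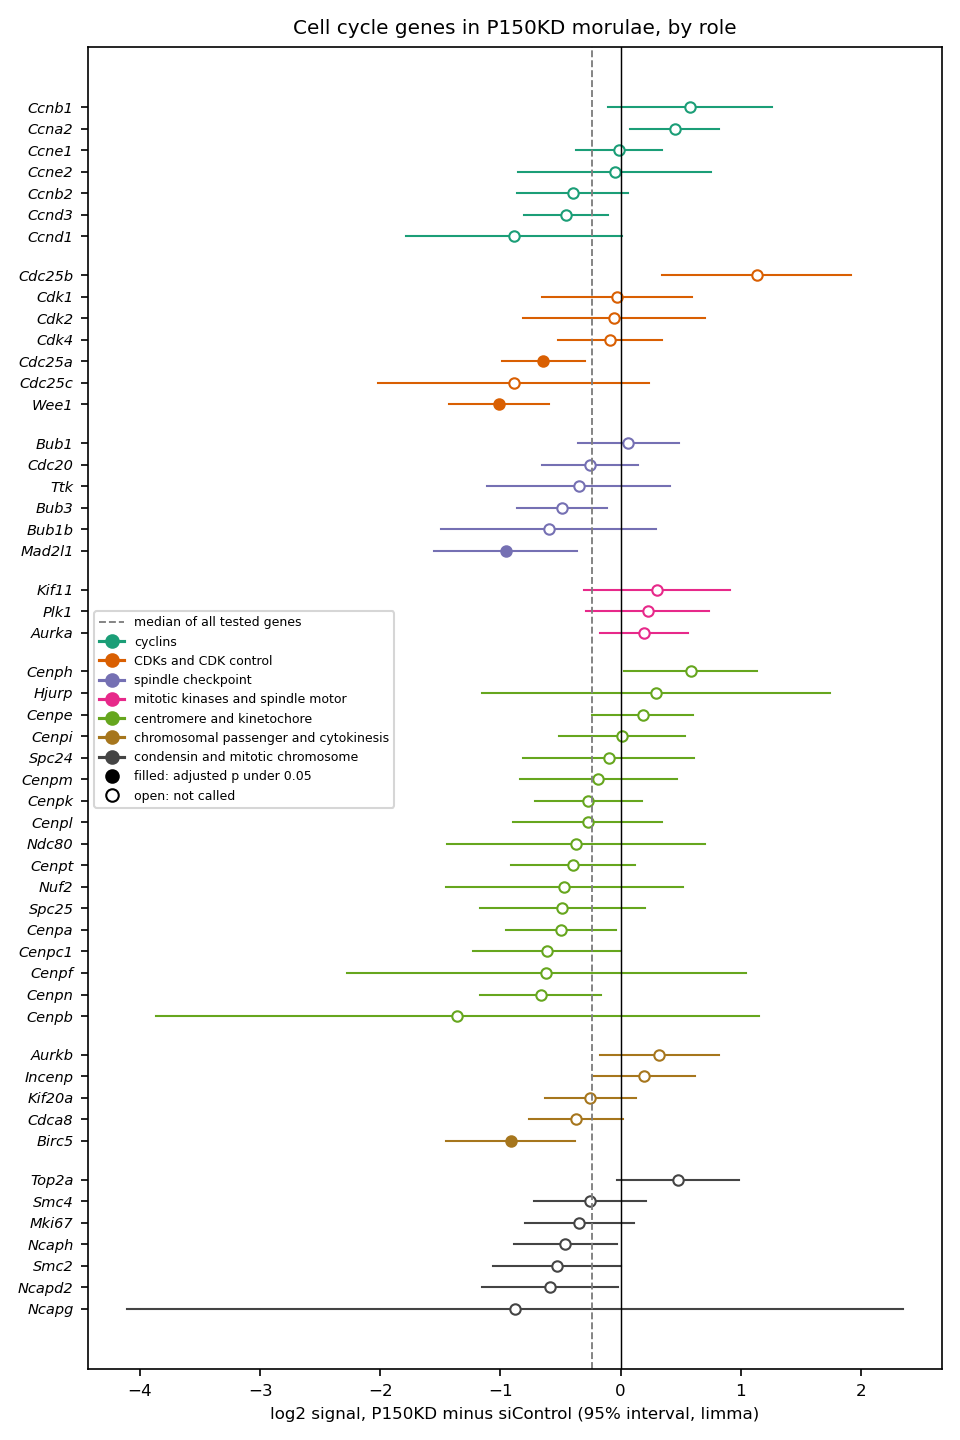
Log2 difference in signal between P150KD and siControl morulae for the 52 tested cell cycle genes, with 95% intervals from limma (x axis) and genes grouped by role (y axis, colours). Filled points mark the 4 genes with an adjusted p under 0.05, Wee1, Cdc25a, Mad2l1 and Birc5, all to the left of the dashed line at -0.24, the median of all tested genes.

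The direction of a whole group depends on how arrays are scaled. With quantile normalization the members' median was -0.15 and that of all genes -0.12; scaled to the median of all probes the values were -0.37 and -0.30; scaled to 16 housekeeping genes they were 0.41 and 0.48. The members' median minus that of all genes was -0.034 with quantile normalization. Scalings that subtract 1 value per array shift all genes alike, so there it was -0.069 each time by construction. Of the housekeeping genes 6 of 16 (37.5%, beside 10.5% of all genes) fell in the comparison itself, among them Actb, Gapdh and Tubb5. Scaled to them 0 members fell, beside 2.04% of all genes, and 14 rose, beside 20.6%: Aurka, Aurkb, Bub1, Ccna2, Ccnb1, Ccne1, Cdc25b, Cenpe, Cenph, Cenpi, Incenp, Kif11, Plk1 and Top2a. With quantile normalization 2 members fell, beside 6.47% of all genes, and 1 rose, Ccna2, beside 7.7%.

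Wee1, the kinase that keeps CDK1 inactive before mitosis, read 5.26, 5.24 and 5.30 on the siControl arrays and 4.41, 4.32, 4.46, 4.10 and 3.97 on P150KD replicates 1 to 5. Its siControl arrays lay close together and every P150KD array was lower (log2 difference -1.01, SE 0.18, limma adjusted p = 0.0127), a 2.02-fold lower signal. Cdc25a, a phosphatase that activates CDKs at the start of S phase and later, read 6.59, 6.45 and 6.59 on the siControl arrays and 5.97, 5.86, 5.90, 5.98 and 5.76 on P150KD replicates 1 to 5. The groups did not overlap, and the 5 knockdown arrays lay close together (log2 difference -0.64, SE 0.15, limma adjusted p = 0.0291). Mad2l1, the checkpoint protein MAD2 that binds Cdc20, read 6.39, 6.36 and 6.50 on the siControl arrays and 5.47, 5.74, 5.95, 4.96 and 5.18 on P150KD replicates 1 to 5. Replicates 4 and 5 were the lowest and replicate 3 the highest of the knockdown arrays, all below the siControl arrays (log2 difference -0.96, SE 0.26, limma adjusted p = 0.0472). Birc5, or survivin, the passenger complex subunit that binds centromeric histone H3, read 8.32, 8.12 and 8.31 on the siControl arrays and 7.53, 7.69, 7.49, 7.08 and 6.88 on P150KD replicates 1 to 5. Again replicates 4 and 5 were lowest (log2 difference -0.92, SE 0.23, limma adjusted p = 0.0392). For Birc5, 2 further probes fell as well, by 0.65 (adjusted p = 0.0392) and 0.86 (adjusted p = 0.0155) on the log2 scale in limma. Mad2l1 had 2 dim probes, each above background on 3 siControl and 3 P150KD arrays, which differed by -0.13 and -1.33 and did not pass (limma adjusted p = 0.951 and 0.427).

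Each of these 4 calls was lost when some single array was left out. Without siControl replicate 1, 0 members fell, and Wee1 then had a limma adjusted p of 0.0526 at a log2 difference of -1.01. Wee1 alone was called without siControl replicate 2 or 3 or without P150KD replicate 1, 4 or 5. Wee1 and Birc5 were called without P150KD replicate 2, and Wee1 and Mad2l1 without P150KD replicate 3. With quantile normalization the differences were -0.76 for Wee1 and -0.71 for Birc5, which still passed, and -0.70 for Mad2l1 and -0.38 for Cdc25a, which did not (limma adjusted p = 0.115 and 0.124). Scaled to the housekeeping genes Wee1, Mad2l1 and Birc5 stood at -0.30, -0.24 and -0.20 and Cdc25a turned to 0.072, none of them called. When slide columns entered the fit as a block, 0 members passed, beside 1.39% of all genes fallen and 1.42% risen. That fit takes its estimate from replicate 1, the knockdown array beside the controls, with limma adjusted p of 0.195 for Wee1, 0.302 for Cdc25a, 0.323 for Mad2l1 and 0.39 for Birc5. In column 1 alone 0 members passed as well, beside 0.089% fallen and 0.459% risen. Within column 1, P150KD replicate 1 differed from the siControl mean by -0.85 for Wee1, -0.57 for Cdc25a, -0.95 for Mad2l1 and -0.72 for Birc5. The mean of replicates 2 to 5, all in column 2, differed by -1.05, -0.66, -0.96 and -0.96. The 4 genes were called from a fit that included replicate 1, so its place below the siControl arrays is no separate check.

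**Figure D2:**
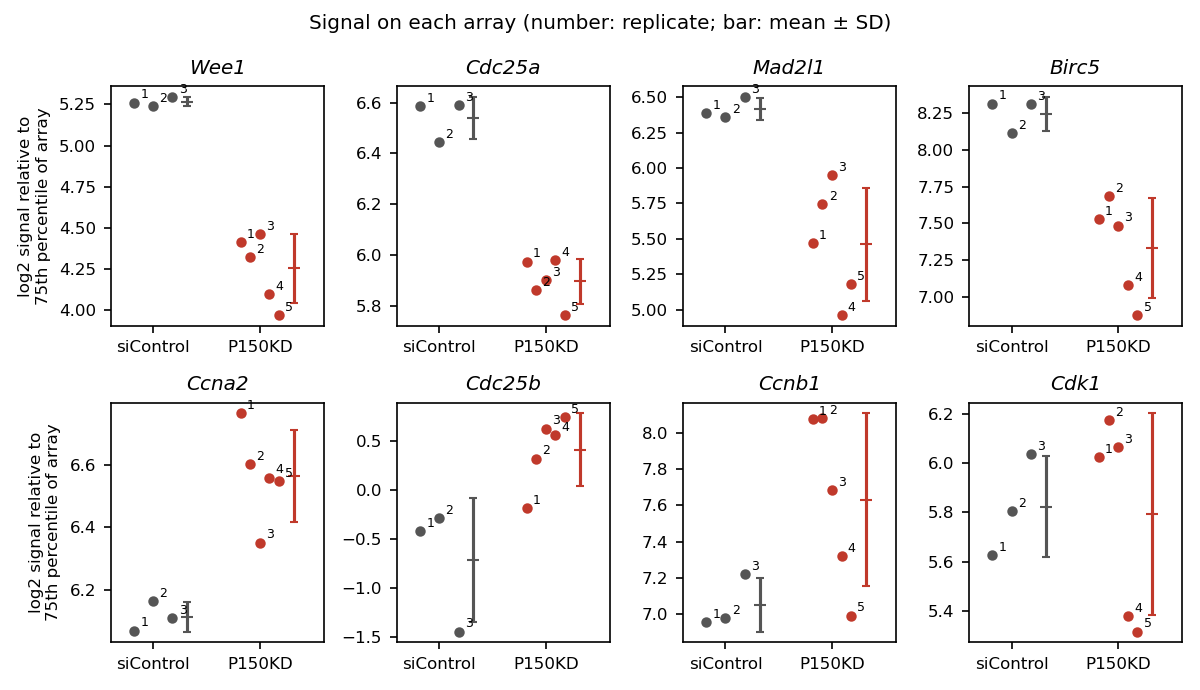
Log2 signal relative to the array's 75th percentile (y axes, which differ between panels) on each siControl and P150KD array for 8 cell cycle genes; numbers are replicates, and bars are the mean ± SD. The groups do not overlap for Wee1, Cdc25a, Mad2l1, Birc5, Ccna2 and Cdc25b, while Ccnb1 and Cdk1 have their lowest P150KD signals on replicates 4 and 5.

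Many genes of the G2 and M phases are controlled through a CHR element, bound by the DREAM and MuvB complexes, and through CCAAT boxes bound by NF-Y. Promoters from RefSeq (GRCm38.p6), running from 250 bases before to 50 bases after a start, were held for 43 of the 54 members, in 47 windows. A CHR (TTTGAA or TTCGAA, both strands) occurred in 26 of 47 windows (55.3%), beside 19.2% of all 32851 windows of this length. A CCAAT box (CCAAT, both strands) occurred in 36 (76.6%), beside 37.4%, and both together in 25 (53.2%), beside 7.52%. Of the 4 members that fell, Wee1 had no entry in the promoter table. The windows of Cdc25a, Mad2l1 and Birc5 held no match to the CHR letters, and 1 of the 3 held the CCAAT letters. The 250 bases before the start of these 3 are shown, followed by those of Cdc20, Cdk1 and Top2a. The last 3 were picked by hand among the members with both motifs before the start, none of which was called. All sequences run 5′ to 3′ on the gene's strand, and capitals mark CHR and CCAAT matches in either orientation. A match is a string of letters and was not tested as a binding site. Members without a CHR match that were not called included Ccne1, Cdk4 and Ncaph. Whether motifs and calls went together was not tested.
Cdc25a, chr9:109875329-109875578, plus strand: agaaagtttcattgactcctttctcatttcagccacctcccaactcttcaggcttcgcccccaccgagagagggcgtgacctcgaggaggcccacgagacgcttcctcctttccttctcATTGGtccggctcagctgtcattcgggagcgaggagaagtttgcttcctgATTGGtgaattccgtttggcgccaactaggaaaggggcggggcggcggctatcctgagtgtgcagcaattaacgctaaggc
Mad2l1, chr6:66534971-66535220, plus strand: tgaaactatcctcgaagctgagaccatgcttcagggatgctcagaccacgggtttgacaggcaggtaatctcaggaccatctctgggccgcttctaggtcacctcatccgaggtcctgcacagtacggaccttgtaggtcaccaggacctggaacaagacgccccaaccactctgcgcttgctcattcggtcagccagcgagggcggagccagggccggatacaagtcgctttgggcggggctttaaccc
Birc5, chr11:117848987-117849236, plus strand: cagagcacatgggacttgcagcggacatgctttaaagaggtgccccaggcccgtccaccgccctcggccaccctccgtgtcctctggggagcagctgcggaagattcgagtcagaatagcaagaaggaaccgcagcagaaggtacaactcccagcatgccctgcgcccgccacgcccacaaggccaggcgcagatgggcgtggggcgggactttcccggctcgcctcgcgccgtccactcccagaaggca
Cdc20, chr4:118437344-118437593, minus strand: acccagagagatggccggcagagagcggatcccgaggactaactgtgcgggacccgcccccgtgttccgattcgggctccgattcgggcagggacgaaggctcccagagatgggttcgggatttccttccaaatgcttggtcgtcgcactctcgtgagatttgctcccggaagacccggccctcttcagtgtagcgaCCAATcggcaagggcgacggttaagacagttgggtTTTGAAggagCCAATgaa
Cdk1, chr10:69352913-69353162, minus strand: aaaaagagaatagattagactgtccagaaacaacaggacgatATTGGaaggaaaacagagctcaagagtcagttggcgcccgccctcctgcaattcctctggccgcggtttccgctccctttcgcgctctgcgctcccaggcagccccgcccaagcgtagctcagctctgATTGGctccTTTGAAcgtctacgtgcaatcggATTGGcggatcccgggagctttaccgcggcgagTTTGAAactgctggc
Top2a, chr11:99024190-99024439, minus strand: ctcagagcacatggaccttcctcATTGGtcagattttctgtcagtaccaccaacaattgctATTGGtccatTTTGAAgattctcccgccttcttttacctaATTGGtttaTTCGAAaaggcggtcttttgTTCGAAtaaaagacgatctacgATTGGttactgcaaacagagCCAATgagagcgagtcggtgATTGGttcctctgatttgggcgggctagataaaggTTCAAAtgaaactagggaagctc

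The Cdc25a promoter held 2 CCAAT boxes in reverse orientation, first bases at -131 and -81 from the start. In Cdc20 a CHR began at -18 between CCAAT boxes at -53 and -8, in Cdk1 CHR matches began at -71 and -15 with 3 reversed CCAAT boxes before the start, and Top2a held 4 CHR and 6 CCAAT matches. Differences of these 3 genes were -0.25 for Cdc20, -0.031 for Cdk1 and 0.48 for Top2a, none of them called (limma adjusted p = 0.358, 0.95 and 0.187). The other members with both motifs before the start had lower mean signals in P150KD, such as Cenpn (-0.66) and Bub3 (-0.49), except Kif11 (0.30). None of them was called, and a lower mean signal was found for 73.1% of all tested members and 61.3% of all tested genes.

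Among the 8 cyclin genes 7 were tested and 0 passed in limma, with 2 (28.6%) at an unadjusted p under 0.05, beside 35.6% of all genes. Ccna2, the cyclin of S phase and mitotic entry, read 6.07, 6.16 and 6.11 on the siControl arrays and 6.76, 6.60, 6.35, 6.56 and 6.55 on P150KD replicates 1 to 5. Every P150KD array was above every siControl array, but the difference of 0.45 (95% interval 0.08 to 0.82, limma adjusted p = 0.102) did not pass. Ccnd3, a D-type cyclin that links growth signals to CDK4 and CDK6, read 5.09, 5.02 and 4.99 on the siControl arrays and 4.63, 4.49, 4.52, 4.73 and 4.52 on P150KD replicates 1 to 5. All P150KD arrays were lower, and the difference of -0.45 (95% interval -0.80 to -0.11, limma adjusted p = 0.0831) did not pass; a dimmer Ccnd3 probe differed by -1.79 with a P150KD SD of 2.94. Ccne1, which with CDK2 starts DNA replication, read 7.61, 7.58 and 7.81 on the siControl arrays and 7.80, 7.70, 7.61, 7.61 and 7.56 on P150KD replicates 1 to 5. The groups overlapped, its dimmer probe gave 0.29, and the interval of the difference ran from -0.37 to 0.34. Ccnb1, the mitotic partner of CDK1 and named here after its values were seen, read 6.96, 6.98 and 7.22 on the siControl arrays and 8.07, 8.08, 7.68, 7.32 and 6.99 on P150KD replicates 1 to 5. Replicates 1 to 3 were above all siControl arrays, replicate 4 just above them and replicate 5 among them (log2 difference 0.58, SE 0.29, limma adjusted p = 0.227), and the other 2 Ccnb1 probes differed by 0.16 and 0.46. Ccnb2, the second B-type cyclin, differed by -0.40 (95% interval -0.86 to 0.06, limma adjusted p = 0.217). Its P150KD arrays spanned 5.22 to 5.51 and its siControl arrays 5.45 to 6.11. Ccnd1 differed by -0.89 (95% interval -1.78 to 0.011, limma adjusted p = 0.169), lowest on P150KD replicate 3 at -0.39. Ccne2 differed by -0.05, with an interval from -0.85 to 0.75.

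Of the CDKs and their controllers 7 of 8 were tested, and Wee1 and Cdc25a fell (28.6%, beside 10.5% of all genes). The CDKs themselves did not pass. Cdk4, the partner of the D-type cyclins, read 6.98, 7.02 and 6.49 on the siControl arrays and 6.88, 6.78, 6.79, 6.59 and 6.67 on P150KD replicates 1 to 5. Its groups overlapped, and its 3 probes gave -0.088, -0.15 and -0.14; the interval of the first ran from -0.52 to 0.35. Cdk1, the kinase that drives mitosis, read 5.63, 5.80 and 6.04 on the siControl arrays and 6.02, 6.18, 6.07, 5.38 and 5.31 on P150KD replicates 1 to 5. The knockdown arrays straddled the siControl arrays, with replicates 4 and 5 below and replicates 1 to 3 near the top, and the mean difference was -0.031 (95% interval -0.66 to 0.60, limma adjusted p = 0.95); its 2 dimmer probes gave 0.01 and 0.60. Cdk2 differed by -0.055 (95% interval -0.81 to 0.70, limma adjusted p = 0.924), between 0.099 and 1.51 on P150KD arrays. Cdc25b, a phosphatase that starts mitosis, read -0.42, -0.29 and -1.45 on the siControl arrays and -0.19, 0.32, 0.63, 0.56 and 0.74 on P150KD replicates 1 to 5. All P150KD arrays were above all siControl arrays, yet the call narrowly missed (log2 difference 1.13, SE 0.34, limma adjusted p = 0.065), with siControl replicate 3 well below the other siControl arrays. Cdc25b rose when the test was limited to probes above background on all 8 arrays. Blocked by slide column, its difference was 0.53 (limma adjusted p = 0.651). The mean of replicates 2 to 5, all in column 2, differed from the siControl mean by 1.28. Cdc25c, the third phosphatase of the family, differed by -0.89 (95% interval -2.02 to 0.23, limma adjusted p = 0.255). Its P150KD arrays ranged from -4.44 to -2.32, with 3 of 5 below the siControl range of -3.03 to -2.02 and the others within it.

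All 6 spindle checkpoint genes were tested, and Mad2l1 was the one that fell (16.7%, beside 10.5% of all genes). Bub3, which brings the checkpoint kinases to the kinetochore, read 5.61, 5.79 and 5.81 on the siControl arrays and 5.28, 5.45, 5.23, 5.05 and 5.24 on P150KD replicates 1 to 5. Every P150KD array was lower and the difference of -0.49 (95% interval -0.86 to -0.11, limma adjusted p = 0.0866) did not pass. Cdc20, the activator of the anaphase-promoting complex that the checkpoint holds back, read 8.19, 8.0 and 8.43 on the siControl arrays and 8.01, 7.97, 7.86, 8.12 and 7.80 on P150KD replicates 1 to 5. The groups overlapped, with a difference of -0.25 (95% interval -0.66 to 0.15, limma adjusted p = 0.358). Bub1b, or BUBR1, read 4.02, 3.85 and 3.17 on the siControl arrays and 3.0, 2.60, 2.45, 3.52 and 3.83 on P150KD replicates 1 to 5. Here P150KD replicates 1 to 3 were below the siControl arrays while replicates 4 and 5 lay among them, the opposite order to Mad2l1 and Birc5, and the difference was -0.60 (95% interval -1.49 to 0.29, limma adjusted p = 0.331). Ttk, the MPS1 kinase that starts checkpoint signalling, showed the same order, with 0.33, 0.077 and -0.20 on replicates 1 to 3 and 0.95 and 0.88 on replicates 4 and 5 (difference -0.35, limma adjusted p = 0.511). Bub1, the kinase that marks centromeric histone H2A, differed by 0.065 (95% interval -0.35 to 0.48, limma adjusted p = 0.836).

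The mitotic kinases and the spindle motor had higher mean signals in P150KD. In limma 0 of 3 passed at either the adjusted or the unadjusted threshold, beside 17.1% and 35.6% of all genes. Blocking on slide column, Kif11 turned to -0.044. Aurka, the centrosome kinase, read 5.98, 6.36 and 6.22 on the siControl arrays and 6.32, 6.45, 6.39, 6.41 and 6.34 on P150KD replicates 1 to 5. Its P150KD arrays lay close together inside or just above the siControl range, and the difference was 0.19 (95% interval -0.17 to 0.56, limma adjusted p = 0.44). Kif11, the motor that pushes spindle poles apart, read 1.57, 2.21 and 2.16 on the siControl arrays and 1.94, 2.70, 1.93, 2.47 and 2.37 on P150KD replicates 1 to 5. The groups overlapped, with a difference of 0.30 (95% interval -0.31 to 0.91, limma adjusted p = 0.474). Plk1, the kinase of mitotic entry and spindle assembly, differed by 0.22 (95% interval -0.28 to 0.73, limma adjusted p = 0.526) and was highest on P150KD replicate 5 at 5.25. Scaled to the housekeeping genes all 3 rose, beside 20.6% of all genes under that scaling.

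Of the 17 centromere and kinetochore members 0 passed in limma, and Cenpn, Cenpa and Cenph (17.6%) had an unadjusted p under 0.05, beside 35.6% of all genes. Their median difference was -0.37, beside -0.24 for all genes. Cenpa, the histone H3 variant that marks centromeres, read 4.23, 3.82 and 4.02 on the siControl arrays and 3.29, 3.66, 3.32, 3.57 and 3.80 on P150KD replicates 1 to 5. All P150KD arrays lay below the siControl arrays, with replicate 5 just below the lowest of them, and the difference of -0.50 (95% interval -0.95 to -0.04, limma adjusted p = 0.135) did not pass. Hjurp, the chaperone that deposits CENP-A, was dim: its P150KD arrays ranged from -1.68 to 0.14 and its siControl arrays from -2.12 to -0.047, so the interval of its difference of 0.29 ran from -1.16 to 1.74, and its other probe gave -0.0016. Cenpn, which binds CENP-A nucleosomes, read 1.14, 1.95 and 1.39 on the siControl arrays and 0.88, 0.86, 0.85, 0.64 and 0.94 on P150KD replicates 1 to 5. Every P150KD array was lower, and the difference was -0.66 (95% interval -1.17 to -0.16, limma adjusted p = 0.0824). Cenpe, a kinetochore motor, read 6.06, 6.36 and 6.58 on the siControl arrays and 6.71, 6.48, 6.42, 6.41 and 6.56 on P150KD replicates 1 to 5. The groups overlapped, with a difference of 0.18 (95% interval -0.24 to 0.61, limma adjusted p = 0.53). Cenph, of the inner kinetochore, read 2.86, 3.19 and 3.42 on the siControl arrays and 3.96, 4.01, 3.89, 3.54 and 3.31 on P150KD replicates 1 to 5. Replicates 1 to 4 were above all siControl arrays and replicate 5 was not, and the difference was 0.58 (95% interval 0.031 to 1.14, limma adjusted p = 0.145).

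Cenpc1, the scaffold between centromere and kinetochore, had a mean level of 1.52 ± 0.088 (SD, n = 3) in siControl against 0.91 ± 0.42 (n = 5) in P150KD. Its P150KD arrays were all lower, from 0.46 to 1.36 (limma adjusted p = 0.165). Cenpi, Cenpk, Cenpl, Cenpm and Cenpt belong to the inner kinetochore network as well. Their differences were 0.008, -0.27, -0.27, -0.19 and -0.40, with adjusted p in limma from 0.27 to 0.985. The NDC80 complex, which grips microtubules, has 4 subunits in the set. Ndc80 differed by -0.37, Nuf2 by -0.47, Spc24 by -0.10 and Spc25 by -0.48, all with intervals across 0. Spc24 read 2.02 and 2.14 on P150KD replicates 4 and 5, above the siControl arrays, and 1.26, 1.19 and 1.05 on replicates 1 to 3, below them. In Ndc80 and Spc25 replicates 4 and 5 were the lowest instead (with replicate 1 as low as 4 in Spc25), at -1.28 and -1.01 and at 5.16 and 4.76. Subunits of 1 complex did not follow the same order over the knockdown arrays. Cenpf, a protein of the outer kinetochore, and Cenpb varied widely within groups, with siControl SDs of 1.36 and 1.91, and their differences of -0.62 and -1.36 cannot be told from 0.

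The 5 genes of the chromosomal passenger complex and cytokinesis went apart: Birc5 fell (20%, beside 10.5% of all genes), and its partners did not pass. Cdca8, or borealin, which anchors the complex with survivin, read 7.71, 7.49 and 7.73 on the siControl arrays and 7.42, 7.21, 7.04, 7.40 and 7.29 on P150KD replicates 1 to 5. All P150KD arrays were lower, with a difference of -0.37 (95% interval -0.76 to 0.016, limma adjusted p = 0.18). Incenp, the scaffold of the complex, differed by 0.19 (95% interval -0.24 to 0.62, limma adjusted p = 0.52) and by 0.21 with its other probe. Aurkb, its kinase, differed by 0.32 (95% interval -0.17 to 0.82, limma adjusted p = 0.344), with P150KD arrays from 0.44 to 0.86. Kif20a, a motor of the central spindle and cytokinesis, differed by -0.25 (95% interval -0.63 to 0.13, limma adjusted p = 0.336). The difference between Birc5 and its partners was not tested.

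Condensin and mitotic chromosome genes gave 0 calls among 7 in limma, with 2 (28.6%) at an unadjusted p under 0.05, beside 35.6% of all genes. Ncapd2, a subunit of condensin I, read 3.97, 3.98 and 3.63 on the siControl arrays and 2.99, 3.05, 3.02, 3.63 and 3.67 on P150KD replicates 1 to 5. Replicates 1 to 3 lay close together below the siControl arrays and replicates 4 and 5 near the lowest siControl array, with a difference of -0.59 (95% interval -1.15 to -0.026, limma adjusted p = 0.149). Ncaph, which closes the condensin I ring, read 5.71, 5.51 and 6.04 on the siControl arrays and 5.08, 5.29, 5.37, 5.44 and 5.29 on P150KD replicates 1 to 5. Every P150KD array was lower, by 0.46 on average (95% interval of the difference -0.89 to -0.031, limma adjusted p = 0.14). Smc4, one of the ATPase arms shared by both condensins, read 6.33, 6.34 and 6.52 on the siControl arrays and 6.21, 6.41, 6.36, 5.79 and 5.96 on P150KD replicates 1 to 5. Replicates 2 and 3 were within the siControl range and the others below it (log2 difference -0.25, SE 0.20, limma adjusted p = 0.43). Smc2, the other arm, differed by -0.53 (95% interval -1.06 to 0.0072, limma adjusted p = 0.169). Top2a, the topoisomerase that untangles sister chromatids, stood at 2.70 ± 0.22 in siControl and 3.17 ± 0.27 in P150KD, a difference of 0.48 (95% interval -0.03 to 0.98, limma adjusted p = 0.187). Mki67, the proliferation marker that coats mitotic chromosomes, differed by -0.34 (95% interval -0.80 to 0.11, limma adjusted p = 0.271) and by -0.26 with its other probe. Ncapg ranged from -7.10 to -2.80 in P150KD and from -6.98 to -2.64 in siControl, too wide for a reading.

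**Figure D3:**
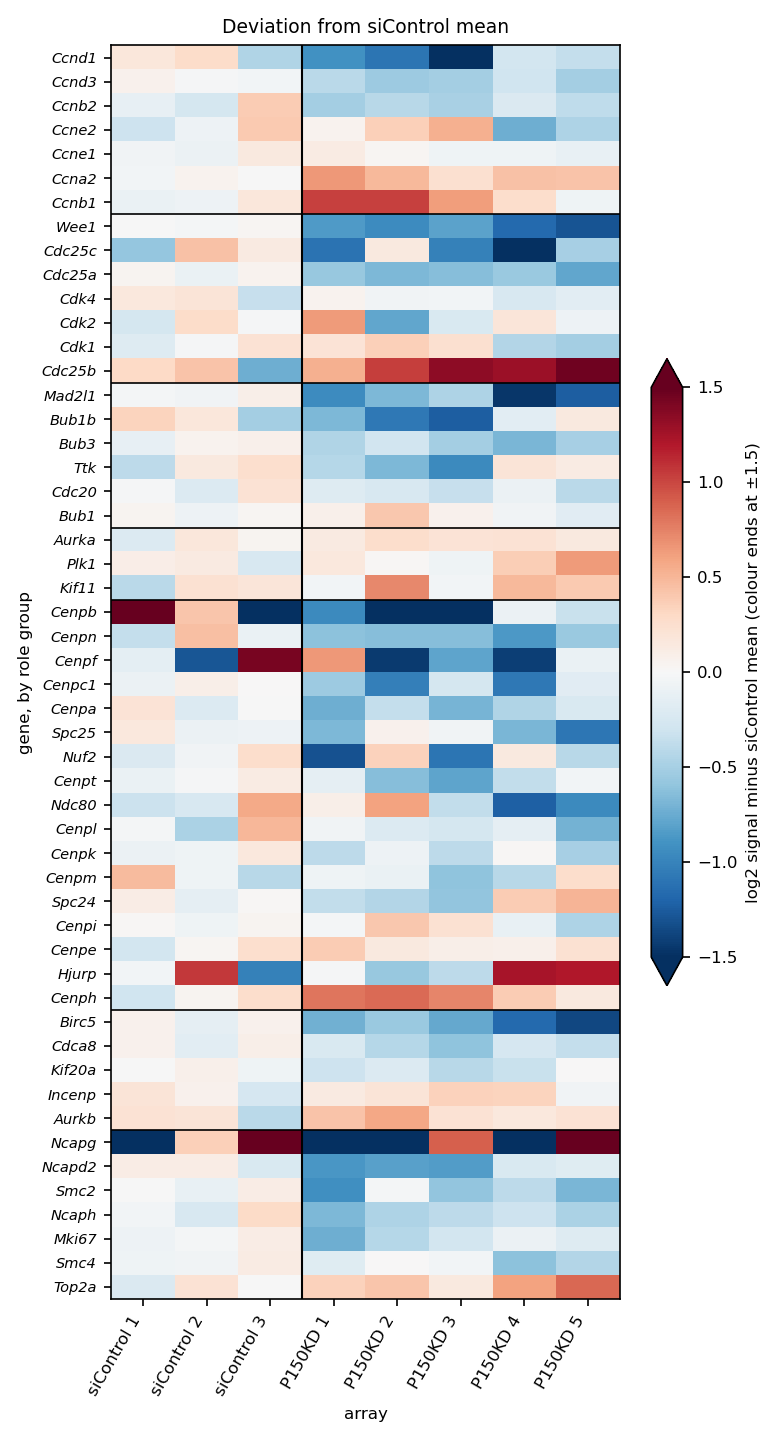
Signal of each of the 52 tested cell cycle genes (rows, in role groups parted by lines) on each array (columns) as the log2 difference from the siControl mean, coloured from blue (lower) to red (higher). Wee1, Cdc25a, Mad2l1 and Birc5 are blue on all 5 P150KD arrays, Ccna2 and Cdc25b are red on all 5, and Ccnb1, Cdk1 and Bub1b differ between replicates 1 to 3 and replicates 4 and 5.

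On each P150KD array between 24 and 27 of the 52 members lay below the lowest siControl array, between 46.2% and 51.9%, beside 41.3% to 46.8% of all tested genes. The members' median deviation from the siControl means was -0.21, -0.21, -0.38, -0.22 and -0.19 on replicates 1 to 5. For all tested genes it was -0.19, -0.28, -0.24, -0.20 and -0.14. Replicate 3 was the array with the lowest members' median, and on replicate 2 the members' median stood above that of all genes.

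Other genes of the same machinery were counted in 8 lists of 134 genes, of which 131 were tested. Of these 19 fell and 8 rose, 14.5% and 6.11%, beside 10.5% and 6.65% of all genes. Among 28 further kinetochore genes 10 fell and 2 rose, 35.7% and 7.14%, with a median of -0.79. Of the 17 kinetochore members 0 passed, and the difference between these lists was not tested. Ska1, of the complex that follows shortening microtubules, fell from 5.72 ± 0.25 (SD, n = 3) to 3.79 ± 0.20 (n = 5) (limma adjusted p = 0.00258). Zwilch, of the complex that brings dynein to kinetochores, fell by 1.21 (SE 0.20) on the log2 scale, and its dimmer probe did not pass. Oip5, a subunit of the Mis18 complex that prepares centromeres for CENP-A, fell by 1.39 (SE 0.23). Dsn1, which ties the outer kinetochore to the centromere, rose by 1.10 (SE 0.19). The count of fallen genes in this list was 5 without siControl replicate 1 and 5 without siControl replicate 3, 2 when scaled to the housekeeping genes and 1 when blocked by slide column.

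Of 7 tested CDK inhibitors 1 rose and 2 fell, 14.3% and 28.6%, beside 6.65% and 10.5% of all genes. Cdkn1a, or p21, read 2.84, 2.38 and 1.40 on the siControl arrays and 3.96, 3.54, 4.0, 4.73 and 4.61 on P150KD replicates 1 to 5. All P150KD arrays were above the siControl arrays (log2 difference 1.96, SE 0.41, limma adjusted p = 0.0211), while the dimmer Cdkn1a probe did not pass. Cdkn1b, or p27, above background on 4 of 5 P150KD arrays, fell by 1.96 (SE 0.46) and Cdkn2c, or p18, by 1.41 (SE 0.33) on the log2 scale. Without siControl replicate 3 this list had 0 risen and 0 fallen, without siControl replicate 1 or P150KD replicate 1 it had 0 fallen, without siControl replicate 2 it had 0 risen, and blocked by slide column it had 0 of either. Of 19 RB, E2F and DREAM regulators 1 fell (5.26%, beside 10.5% of all genes). It was E2f8, a repressor of the E2F family, which went from 3.03 ± 0.15 to 0.19 ± 0.82 (limma adjusted p = 0.0102). Of 20 genes of the anaphase-promoting complex and mitotic exit 2 fell and 2 rose, 10% each, beside 10.5% and 6.65% of all genes. Here 0 rose without siControl replicate 1 or 2 or without P150KD replicate 1, 4 or 5, and 1 fell without any one siControl array or without P150KD replicate 4. The subunit gene Cdc26 and Fbxo5, or EMI1, an inhibitor of the complex, fell by 1.25 and 0.78; the subunit gene Anapc7 and Ube2c, its ubiquitin-conjugating enzyme, rose by 0.88 and 0.61. Of 17 other cyclins, CDKs and their regulators 3 rose and 1 fell, 17.6% and 5.88%, beside 6.65% and 10.5% of all genes. Ccnb3, the meiotic B-type cyclin, above background on 2 of 3 siControl arrays, rose by 3.08 (SE 0.70), Ccng1, a p53 target, by 0.81 and Bora, the activator of Aurora A and PLK1, by 0.90, and Cdk5, a kinase best known from neurons, fell. Cdk5 was above background on all 3 siControl arrays but on 2 of 5 P150KD arrays, so the size of its difference is not given. In the lists of 23 other spindle and cytokinesis genes, 14 cohesin genes and 3 other condensin genes 1 gene each fell, Numa1 at the spindle pole by 0.88, Pds5b by 0.97 and the condensin II gene Ncaph2 by 1.45, and 0 rose. That is 4.35%, 7.14% and 33.3% fallen, beside 10.5% of all genes, and 0% risen, beside 6.65%. Without siControl replicate 1 or 2, 0 genes fell in the spindle and the cohesin lists. Among the other cyclins, CDKs and regulators 0 rose without siControl replicate 1 and 0 fell without siControl replicate 2 or 3. Blocked by slide column, 0 genes passed in these lists and among the RB, E2F and DREAM regulators. Dimmer probes of Pds5b, Ncaph2 and Anapc7 did not pass.

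**Figure D4:**
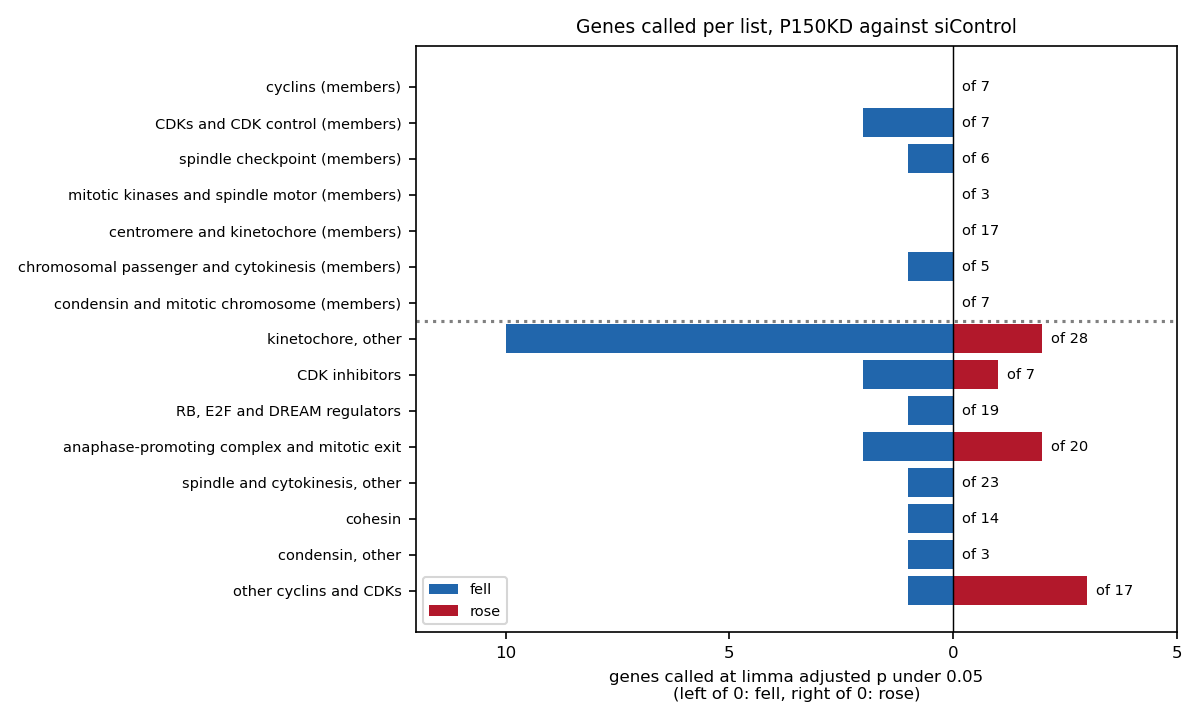
Number of genes that fell (blue, left of 0) or rose (red, right of 0) at a limma adjusted p under 0.05 in each role group of the 54 cell cycle genes (above the dotted line) and in 8 further lists (below it); the text beside each bar gives the number tested. The longest bar is that of the further kinetochore genes, 10 fallen of 28, beside 0 of 17 centromere and kinetochore members.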

How the data were processed

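RNA of 10 morulae per array went through 2-round amplification and Cy3 labelling at equal mass, per the labels' protocols, so levels are relative. The deposited scanner files hold a processed intensity, which the authors' software had corrected for background and spatial trend but not scaled between arrays, per the file headers. That software was Agilent Feature Extraction, version 10.5.1, per the submitters' processing notes. Its deposited flags (0 or 1) mark spots above background, saturated or uneven. The authors' deposited series table holds log2 values whose scale and direction are not stated; they matched the scanner log2 signals after 75th percentile scaling and centring per probe (r of at least 0.999999, column medians -0.21 to 0.091). RefSeq accessions named 27235 of 55681 probes (table of GRCm38.p6).

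Spots of a probe were averaged on the log2 scale, the array's 75th percentile was subtracted, and probes well above background on at least 3 of 8 arrays were tested: 30348 of 55681. Limma 3.58.1 (R 4.3.3; lmFit, eBayes, two-sided, no covariates) compared P150KD with siControl, adjusted by Benjamini-Hochberg over the tested probes; the brightest tested probe stood for its gene. Array weights used statmod 1.5.0; tables used Python 3.11.15, pandas 2.3.3, numpy 2.4.6 and matplotlib 3.10.9. The fit was tested on simulated data. Values per array were given for members that passed, the 2 members of each role with the smallest p and the one with the highest signal; those of Ccnb1, Cdk1, Cdc25b, Bub1b, Cenph and all further members were added after their values were seen. Of each further list up to 4 called genes were named. Members and lists were chosen with earlier results of these data known. Alternatives were normexp (offset 50, on median spot signals), quantile, median and housekeeping scaling, the series table, 2 other filters, replicate and slide column blocks, eBayes with trend, array weights, probe means and leaving out each array; column 1 alone was added after the data were seen. Same-numbered arrays of the 2 groups did not deviate together. Depth is set by the number of arrays.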

Additional observations from a re-analysis of the deposited data

Results flagged for a closer look

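In the 5 P150KD arrays, the Cenpn signal of replicate 4 (0.64) lay far below the next lowest array (0.85) for so narrow a group: the gap made up 0.72 of the whole range, above the critical value of 0.71. Of 20 genes examined in this way it was the only one, and chance flags about 1 in 20 groups.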

How the results depend on the processing

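The count of fallen members, 4, stayed within 1.5 times with normexp, the series table, no filter (3, with Ccnd2 in and Mad2l1 and Birc5 out), only probes above background on all arrays, eBayes with trend, array weights and probe means, and was 2 with quantile normalization, 1 with median scaling and 0 with housekeeping scaling, the replicate block, the slide column block and column 1 alone. Risen members, 0, became 1 with quantile normalization, with probes above background on all arrays and with eBayes trend, and 14 with housekeeping scaling. The members' median, -0.31, was -0.15 with quantile normalization, -0.23 with array weights, -0.21 with the slide column as a block, -0.21 in column 1 alone, and turned to 0.41 with housekeeping scaling. Of all probes 4231 were called; the count was 6357 with housekeeping scaling, 713 with the column block, 145 in column 1 alone and 0 with the replicate block (6371 at an unadjusted limma p under 0.05). The further cell cycle genes called, 27, were 17 with median scaling, 2 with the column block and 0 in column 1 alone and with the replicate block (27 and 36 unadjusted). No shared deviation of same-numbered arrays was seen, with correlations of deviations of -0.014, -0.075 and -0.017. Such values cannot settle whether the collections were paired, which the labels do not say. Under the replicate block Chaf1a was -2.73 (limma adjusted p = 0.163). It was -3.72 with the column block (limma adjusted p = 0.0509) and -3.72 in column 1 alone.

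Leaving out 1 array gave 0 to 2 fallen members, 1706 to 3749 probes, 10 to 24 further genes and a median of -0.36 to -0.21. With housekeeping scaling these members changed sign: Ccnd3 0.26, Ccne1 0.70, Cdk4 0.63, Cdc25a 0.072, Bub3 0.23, Cdc20 0.46, Cenpa 0.22, Cenpn 0.052, Cdca8 0.34, Smc4 0.46, Ncapd2 0.13, Ncaph 0.26. Ccne1, near 0, also turned to 0.20 with quantile normalization, 0.032 with the replicate block, 0.13 with the column block, 0.13 in column 1 alone, 0.029 with array weights and 0.14 with probe means, and ranged from -0.058 to 0.057 with 1 array left out. Cdk4 turned to 0.029 with normexp, 0.14 with quantile normalization, 0.054 with the column block and 0.054 in column 1 alone (-0.26 to 0.0067 with 1 array left out), and Kif11 to -0.044 in both of the last. The cause of these changes was not tested. With 3 and 5 arrays, the 95% interval stays within 2-fold for 31 of 52 members.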

Other observations

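Tubb5, a beta-tubulin gene of the spindle's building block, fell from 4.91 ± 0.24 (SD, n = 3) to 2.49 ± 0.42 (n = 5), with a log2 difference of -2.42 (SE 0.28, limma adjusted p = 0.00364). Actb and Gapdh fell by 1.20 and 1.06 on the log2 scale. Blocked by slide column, 0 of the 16 housekeeping genes passed, so the calls of Tubb5, Actb and Gapdh were lost. Of the morula markers, Tead4 and Zfp42 (22.2%, beside 10.5% of all genes) fell by 0.87 and 0.65 and 7 of 9 did not pass. Without any one siControl array 0 of the 9 fell. Of 5 tested leukocyte markers Coro1a (20%, beside 6.65% of all genes), which encodes an actin-binding protein, rose by 2.67. Without siControl replicate 2 or 3, 0 of the 5 rose, and 0 rose with the slide column or the replicate as a block. Of the 9 leukocyte markers listed, Coro1a, Cd3e and Itgam were above background on every array. Laptm5, Lyz2 and Ptprc, the pan-leukocyte gene, were above background on no array. Summed leukocyte marker signals ran from 4.44 to 16.0 on siControl and from 6.65 to 7.38 on P150KD arrays, in units of the array's 75th percentile. Of 4 tested sperm markers 0 passed in limma, against 1 at an unadjusted p under 0.05, with summed signals of the list from 0.198 to 0.252 and from 0.241 to 1.92. Of 3 tested cumulus markers 0 passed, also at an unadjusted p under 0.05.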
